A study of Mus musculus with 2 samples.

Results

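Interferon-stimulated genes were followed as a set of 39 genes, out of 27998 in the count files, through single-cell transcriptomes of mouse dorsal skin. The set is a list of symbols of genes known to respond to interferon. Its rule uses no measured value, although the list was drawn up with earlier results of these data known, and each of the 39 was found by its symbol. The series concerns the part of dermal fat cell formation in skin inflammation with neutrophils. One skin sample had been treated each day for 5 days with topical imiquimod (IMQ), an agonist of the nucleic acid sensor Tlr7 that induces a psoriasis-like dermatitis, and the other was control skin. Both came from wild-type C57BL/6 mice aged 2 months and described as female, and no transgene or mutation was involved. Each condition had 1 library, and how many mice it pooled is not given in the sources used here. Without replicates the treatment could not be tested, so the values describe these libraries and not the conditions.

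Type I interferons such as interferon beta and type II interferon, or interferon gamma, are secreted proteins that bind separate receptors on most cells and act through Janus kinases on STAT transcription factors. Type I signals assemble a complex with Stat2 and Irf9 that binds the interferon-stimulated response element, whereas interferon gamma acts mainly at the gamma-activated site. The genes switched on in this way encode sensors of viral RNA, antiviral enzymes and GTPases, feedback regulators and the chemokines Cxcl9 and Cxcl10, which attract T cells and natural killer cells that carry the receptor Cxcr3.

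Promoters of 5 members are shown because the results turn on these genes, namely both chemokines, the ubiquitin-like modifier Isg15 and the membrane proteins Ifitm1 and Ifitm3. Each is the RefSeq window on GRCm38.p6 from 250 bases before to 50 bases after a transcription start, written 5′ to 3′ on the gene's strand, with matches to either motif in capitals. The motifs searched on both strands were, for the interferon-stimulated response element, GAAA followed after any 2 bases by a further GAAA, and for the gamma-activated site TTCNNNGAA, where N is any base.
Cxcl9: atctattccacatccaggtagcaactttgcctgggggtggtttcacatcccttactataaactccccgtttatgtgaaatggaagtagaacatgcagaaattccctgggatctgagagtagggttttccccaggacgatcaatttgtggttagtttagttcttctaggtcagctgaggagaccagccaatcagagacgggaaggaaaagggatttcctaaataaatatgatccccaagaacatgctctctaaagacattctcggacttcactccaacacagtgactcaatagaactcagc
Cxcl10: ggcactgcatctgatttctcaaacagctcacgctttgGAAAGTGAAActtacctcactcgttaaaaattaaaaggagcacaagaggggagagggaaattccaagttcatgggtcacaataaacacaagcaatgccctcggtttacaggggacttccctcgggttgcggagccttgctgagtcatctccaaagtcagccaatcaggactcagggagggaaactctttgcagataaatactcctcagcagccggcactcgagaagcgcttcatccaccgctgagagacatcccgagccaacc
Isg15: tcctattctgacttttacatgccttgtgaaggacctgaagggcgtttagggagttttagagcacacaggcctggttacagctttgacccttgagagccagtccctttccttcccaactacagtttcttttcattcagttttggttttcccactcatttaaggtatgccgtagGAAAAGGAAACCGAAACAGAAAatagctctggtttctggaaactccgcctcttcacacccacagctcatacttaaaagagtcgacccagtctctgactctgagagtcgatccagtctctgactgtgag
Ifitm1: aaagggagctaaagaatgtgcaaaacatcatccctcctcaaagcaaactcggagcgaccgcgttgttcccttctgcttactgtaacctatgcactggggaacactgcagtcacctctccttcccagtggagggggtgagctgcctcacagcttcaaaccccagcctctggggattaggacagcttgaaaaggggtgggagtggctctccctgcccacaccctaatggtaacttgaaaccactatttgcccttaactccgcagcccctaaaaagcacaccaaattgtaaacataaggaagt
Ifitm3: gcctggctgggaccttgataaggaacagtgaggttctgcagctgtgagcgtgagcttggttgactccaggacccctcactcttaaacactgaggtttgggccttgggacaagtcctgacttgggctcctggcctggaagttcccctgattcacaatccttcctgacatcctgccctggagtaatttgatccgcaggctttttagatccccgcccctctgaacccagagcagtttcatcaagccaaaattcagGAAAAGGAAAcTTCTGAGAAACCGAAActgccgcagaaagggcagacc
The windows lie at chr5:92328030-92328329 for Cxcl9, chr5:92348840-92349139 for Cxcl10 and chr4:156200769-156201068 for Isg15, all on the minus strand. Ifitm1 is at chr7:140967826-140968125 on the plus strand and Ifitm3 at chr7:141010695-141010994 on the minus strand. The Cxcl10 window held 1 response element, whose first base lies 213 bases before the start. Isg15 held 3 overlapping response elements, beginning 78, 72 and 66 bases before the start. Ifitm3 held 2 response elements beginning 2 and 19 bases after the start, and a gamma-activated site beginning 13 bases after it that overlaps the second of them. The letters of neither motif occurred in the Cxcl9 and Ifitm1 windows. Of the 39 members, 32 were matched to a RefSeq promoter, and 18 of those 32 (56.2%) held the response element in at least 1 window, as did 3.99% of all 27025 genes with windows of this length. The gamma-activated site was held by 7 of the 32 (21.9%), against 9.55% of all genes. Ifi27l2a, Oas2, Mx1, Rtp4, Usp18, Iigp1 and Parp14 were not matched. A match describes letters and does not show that a factor binds there.

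The IMQ library listed 9414 barcodes with 144054978 UMIs (molecules counted once by their identifier), and the control library 10857 barcodes with 123088680 UMIs. Cells with at least 200 genes and at most 10% of UMIs from mitochondrial genes were used, which after removal of called doublets left 8389 IMQ cells and 9875 control cells, with a median of 12543 and 9468 UMIs. A marker gate named 17339 of these cells, and the 8 lineages that held 50 or more cells on both sides were compared. They were fibroblasts (3719 IMQ and 6626 control cells), keratinocytes (2103 and 1578), macrophages and monocytes (396 and 100), T and natural killer cells (440 and 282), endothelial cells (279 and 80), pericytes and smooth muscle (202 and 353), Schwann cells (170 and 163) and muscle cells (81 and 66). In these gates 3 to 8 of the 10 leading genes were the gate's own markers and at most 1 was a marker of another lineage. Cells were deeper in the IMQ library in each of these gates except muscle, for example with a median of 13297 against 9549 UMIs in fibroblasts and 25636 against 16749 in keratinocytes. The libraries shared 23 barcode strings.

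Within a gate, the UMIs of a gene were summed over cells and given as counts per 1e6 UMIs of that gate (CPM). A member with under 20 UMIs over both libraries was not measured there, so counts of higher and lower members describe the measured ones only. A gene counted as higher or lower in IMQ when its ratio of CPM was at least 2-fold and its exact 95% interval excluded equality. The intervals cover counting error only, and UMIs of 1 cell are not independent.

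The members moved in different directions in different lineages. Pericytes and Schwann cells carried more of them in IMQ skin, macrophages carried less of many, and fibroblasts and keratinocytes had members on both sides. Cxcl10 was higher in 5 lineages, Cxcl9 in 5 and Ifitm1 in 4, and of the 39 members 22 were higher in at least 1 lineage, 15 were lower in at least 1, 9 did both and 11 did neither. In fibroblasts 6 of 39 measured members were higher (15.4%) and 1 was lower (2.56%), against 12.5% higher and 3.84% lower among all measured genes, so both shares were near the background. In keratinocytes 7 of 31 were higher (22.6%) and 5 lower (16.1%), against 11.3% and 11.4% of all genes. In macrophages and monocytes 4 of 36 were higher (11.1%) and 12 lower (33.3%), against 5.83% and 9.14%. T and natural killer cells had 2 of 23 higher (8.70%) and 0 lower, against 8.48% and 5.82%, and endothelial cells had 3 of 34 higher (8.82%) and 0 lower, against 8.79% and 3.51%, so their higher shares were those of the background. In pericytes and smooth muscle 13 of 30 were higher (43.3%) and 0 lower, against 6.69% and 6.34%. In Schwann cells 8 of 20 were higher (40%) and 0 lower, against 3.28% and 3.14%. Muscle cells had 8 measured members, of which 0 were higher and 1 lower, against 5.19% and 4.14% of all genes.

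The median log2 ratio of IMQ over control over the measured members told the same lineages apart. It was 0.70 in pericytes and smooth muscle and 0.66 in Schwann cells, where the median over all measured genes was 0.03 in each. In macrophages and monocytes it was -0.54, beside -0.05 over all genes. Fibroblasts had 0.37 beside 0.28, and endothelial cells 0.30 beside 0.16, which leaves 0.09 and 0.14 above the other genes. Keratinocytes had -0.09 beside 0.02, T and natural killer cells 0.02 beside 0.06, and muscle cells 0.05 beside 0.01. Only 7 members were measured in all 8 lineages.

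**Figure D1:**
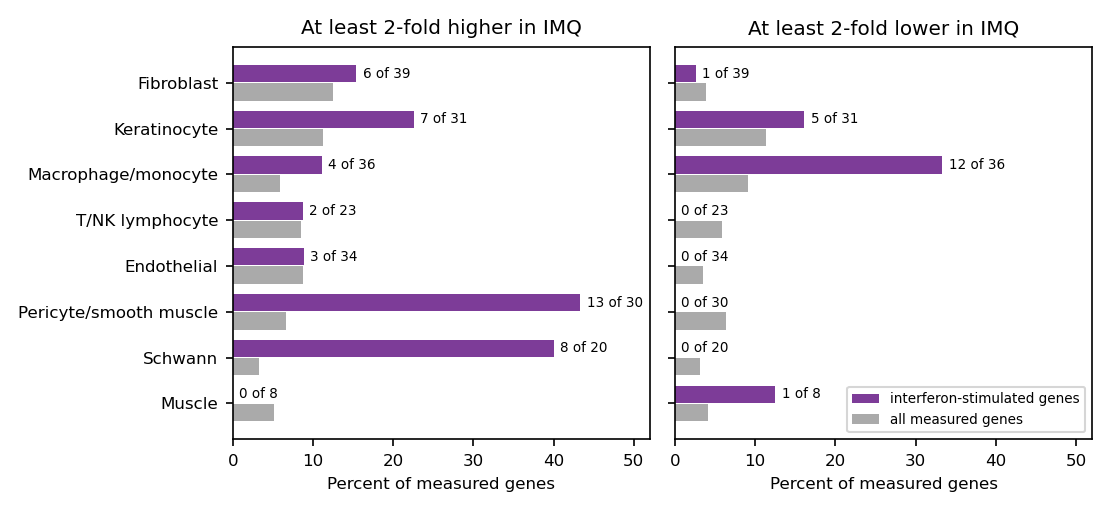
Percent of measured genes that were at least 2-fold higher (left) or lower (right) in IMQ with an interval excluding equality, by lineage, for the interferon-stimulated genes (purple, with counts) and for all measured genes (grey). Pericytes and smooth muscle (13 of 30) and Schwann cells (8 of 20) stand out on the left, macrophages and monocytes (12 of 36) on the right.

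**Figure D2:**
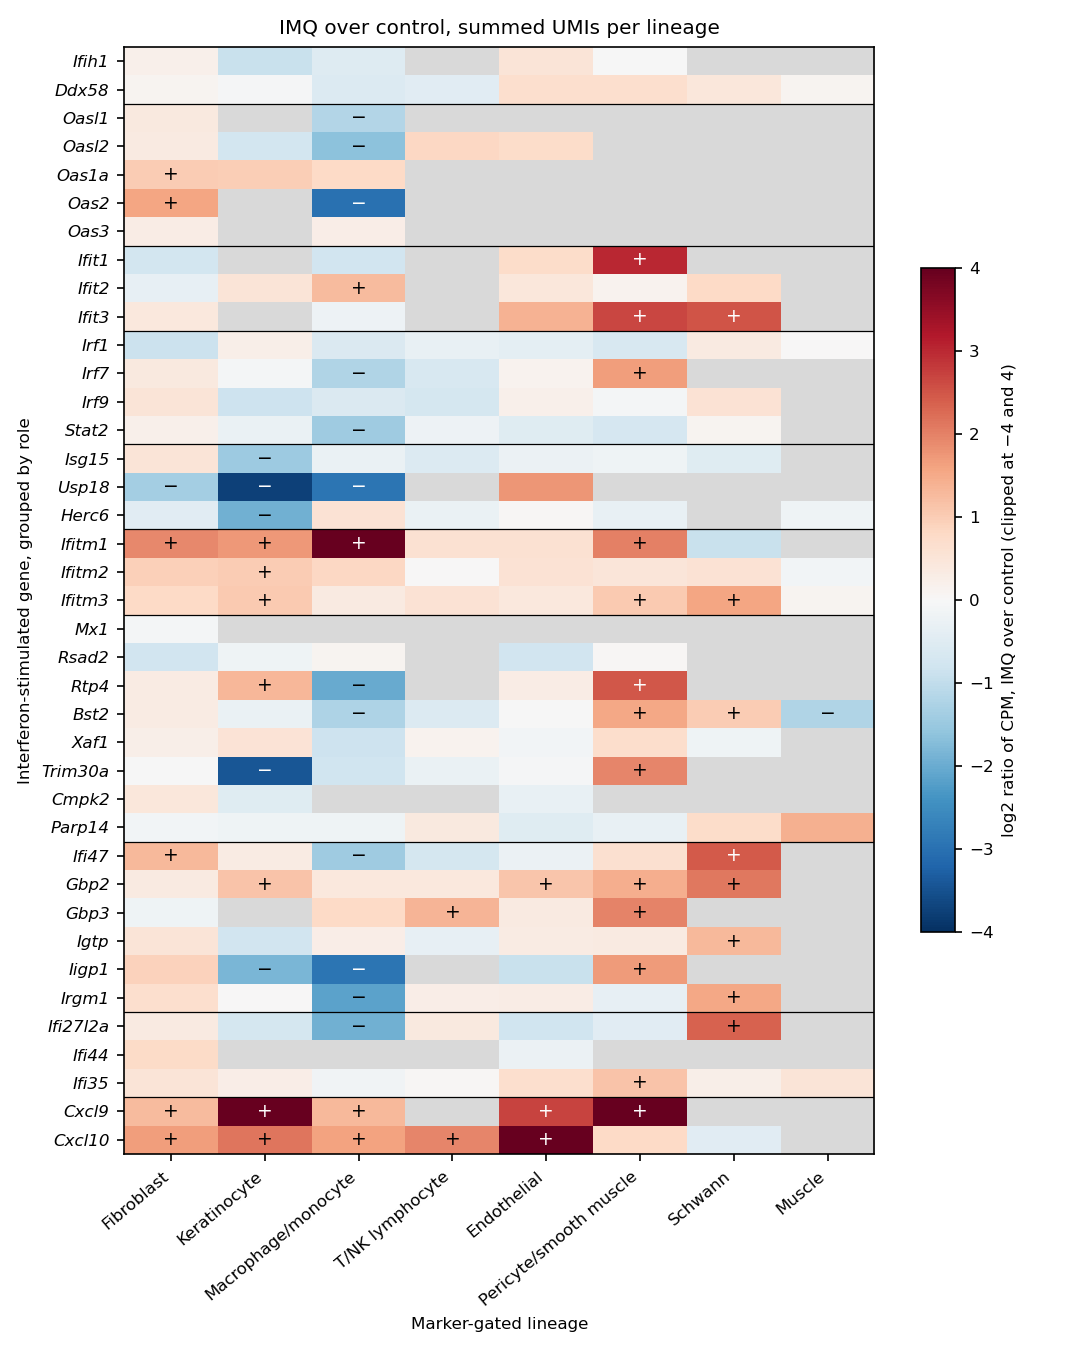
Log2 ratio of CPM, IMQ over control, for each of the 39 members (down the side, grouped by role) in 8 lineages (across). Grey cells had under 20 UMIs over both libraries, a plus or minus marks members counted as higher or lower, and Cxcl9 in macrophages and in pericytes, at 0 in control, has a lower bound as its ratio. Colours are clipped at the ends of the scale, for example for Cxcl9 in pericytes (log2 ratio 7.68) and in keratinocytes (5.62).

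Upstream of the set, interferon transcripts were sparse and lay in different cells for the 2 types. Of 19 interferon genes searched, 14 had no UMI in each library. Ifnb1, which encodes interferon beta, was higher in IMQ macrophages and monocytes, with 133 UMIs against 3 in control, or 51.2 against 5.76 CPM (8.88-fold, interval 2.97 to 43.6). These UMIs lay in 37 of 396 IMQ cells (9.34%) and 2 of 100 control cells (2.00%), and no T or natural killer cell of either library had one. Ifnb1 was also higher in fibroblasts at 0.694 against 0.101 CPM, with 17 of the 37 IMQ UMIs in 1 cell. Ifng, which encodes interferon gamma, went the other way in its main source, the T and natural killer cells. There it had 124 CPM in IMQ and 303 CPM in control (ratio 0.410, interval 0.351 to 0.479), in 15% against 33.0% of cells, while no macrophage had a UMI. The UMIs lay in 66 IMQ and 93 control cells, so the lower level went with a smaller share of cells with a UMI. The make-up of this gate also differed. Cluster 25, with Ifng among its leading genes, held 107 of 440 IMQ and 108 of 282 control cells. Cluster 21, led by Il17a, held 224 and 104. The part of this difference in the Ifng level was not tested. Tlr7 itself had 25.4 CPM in IMQ and 32.7 CPM in control macrophages and was counted as neither.

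Of 5 receptor genes measured in fibroblasts and 5 in macrophages, 0 met the rule in each. Their median log2 ratio was 0.68 in fibroblasts, beside 0.28 over all genes, and 0.37 in macrophages, beside -0.05. In keratinocytes Ifnar2, a chain of the type I receptor, was higher at 19.0 against 8.38 CPM. Ifngr1, the ligand-binding chain of the interferon gamma receptor, was lower there at 19.5 against 58.6 CPM, and so was Ifnlr1, the specific chain of the type III receptor, at 2.87 against 6.04 CPM. In pericytes both Ifngr1 (46.1 against 21.1 CPM) and Ifngr2 (90.9 against 42.9 CPM) were higher. Of the signalling genes, the feedback inhibitor Socs1 was lower in T and natural killer cells (57.1 against 146 CPM) and in macrophages (16.9 against 34.6 CPM). Socs3, which is induced chiefly through Stat3, was higher in keratinocytes (576 against 201 CPM) and in macrophages (539 against 204 CPM). Tmem173, the adaptor known as STING, was higher in fibroblasts (27.0 against 11.5 CPM), keratinocytes (2.81 against 0.399 CPM) and pericytes (6.34 against 1.76 CPM).

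In fibroblasts the RNA sensors were alike in both libraries. Ddx58, or RIG-I, had 19.2 CPM in IMQ and 17.8 CPM in control, and Ifih1, or MDA5, had 19.0 and 16.4 CPM. The transcription factors were neither, with Irf9 at 24.2 against 16.8 CPM, Stat2 at 24.5 against 21.5 CPM and Irf7 at 26.2 against 20 CPM. Irf1, which responds to both interferon types, had 197 CPM in IMQ and 362 CPM in control, a ratio of 0.546 that falls short of the 2-fold rule.

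Among the fibroblast effectors a few members separated from the rest. Ifitm1, which restricts the entry of enveloped viruses, had 263 CPM in IMQ and 69.4 CPM in control (3.79-fold, interval 3.67 to 3.92), in 43.0% against 8.95% of cells. Of its 4805 control UMIs, 3877 lay in 97 cells of cluster 9, a small cluster among those described below. The large control clusters 3, 6 and 29 had 10.7, 6.53 and 5.07 CPM. In IMQ 3163 of 14027 UMIs lay in 56 cells of cluster 9. The related Ifitm2 (1415 against 737 CPM) and Ifitm3 (2103 against 1200.0 CPM) had ratios of 1.92 and 1.75. Ifi47, an immunity-related GTPase, was higher at 13.7 against 5.62 CPM (2.44-fold). The other GTPases were neither, with Iigp1 at 44.4 against 23.6 CPM and Gbp2 at 38.1 against 29.5 CPM as examples. The oligoadenylate synthetases, which activate RNase L, were low, and Oas1a (2.4 against 1.20 CPM) and Oas2 (0.825 against 0.274 CPM, or 44 against 19 UMIs) were higher while Oas3, Oasl1 and Oasl2 had ratios of 1.22 to 1.32.

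The genes most tied to type I interferon in other settings did not move together in fibroblasts. Isg15 had 18.4 CPM in IMQ and 13.1 CPM in control, a ratio of 1.41. Usp18, the protease that removes Isg15 from proteins and blocks the type I receptor, was lower at 10.2 against 26.0 CPM (ratio 0.391, interval 0.355 to 0.431). Herc6, the main ligase for Isg15 in mouse, had 10.9 and 14.9 CPM. The Ifit genes, whose proteins bind viral RNA, also split, with Ifit1 at 11.9 against 19.6 CPM, Ifit2 at 10.3 against 13.0 CPM and Ifit3 at 10.2 against 7.58 CPM, all neither. Ifit1 reads can be shared with close paralogs, as can those of Ifit3, Oas1a and the Gbp and Ifitm genes, so single members of these families are uncertain. None of the 8 other antiviral effectors was called, from Rsad2, or viperin, at a ratio of 0.584 to Cmpk2, a mitochondrial nucleotide kinase, at 1.38. Bst2, or tetherin, had 129 against 102 CPM, Mx1 0.356 against 0.375 CPM, and the ratios of Rtp4, Xaf1, Trim30a and Parp14 lay between 0.928 and 1.27. Of the remaining members Ifi27l2a had 535 against 413 CPM, Ifi35 27.6 against 19.4 CPM and Ifi44 0.319 against 0.188 CPM.

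The fibroblasts of the 2 libraries fell largely into different clusters. Unsupervised clusters, built without the members, put most IMQ fibroblasts in clusters 5, 3, 8 and 1 and most control fibroblasts in clusters 6, 3, 29 and 18. In the 6 clusters with at least 50 gated cells of each library (1882 IMQ and 3414 control cells), 2 of 38 measured members were higher and 1 lower, against 8.58% and 2.51% of all genes. The 2 higher were Cxcl10 (632 against 174 CPM) and Ifitm1 (319.7 against 159 CPM), and the lower one was Rsad2 (9.28 against 19.7 CPM). Cluster 9 held 3163 of the 6753 IMQ and 3877 of the 4551 control Ifitm1 UMIs of these clusters. Usp18 had 16 CPM in IMQ and 20.6 CPM in control in these clusters and was no longer lower, and 4 members no longer met the rule for higher. Their ratios there were 1.97 for Ifi47 (interval 1.68 to 2.30), just short of 2-fold, 1.53 for Oas2 (0.735 to 3.20), 1.5 for Cxcl9 (1.27 to 1.76) and 1.20 for Oas1a (0.862 to 1.68). The median log2 ratio of the members there was -0.12, below the 0.19 of all genes. Usp18 was near equal within cluster 3 (34.6 against 33.5 CPM), and lower in the IMQ-dominated clusters 5 and 8 (6.02 and 7.21 CPM) than in the control-dominated clusters 6 and 29 (31.8 and 27.7 CPM).

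Macrophages and monocytes had the most members lower in IMQ. Oas2 had 7.70 CPM in IMQ and 61.5 CPM in control (ratio 0.125, interval 0.0678 to 0.226), in 4.29% against 24.0% of cells. Ifi27l2a, a small mitochondrial and nuclear membrane protein of the ISG12 family, had 425 against 1606 CPM (ratio 0.265). Usp18 had 3.08 against 23.1 CPM, from 8 and 12 UMIs. Oasl1 (73.9 against 165 CPM) and Oasl2 (28.5 against 88.4 CPM), which are related to the synthetases, were lower as well. So were the transcription factors Irf7 (25.8 against 59.6 CPM) and Stat2 (18.9 against 50 CPM). The remaining lower members were Rtp4 (16.5 against 67.3 CPM), a chaperone-like protein that limits viral replication, Bst2 (115 against 271 CPM), and the GTPases Ifi47 (11.5 against 30.7 CPM), Iigp1 (3.08 against 23.1 CPM) and Irgm1 (9.23 against 40.4 CPM).

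Other members were level or higher in the same cells. Ifitm1 had 1042 CPM in IMQ and 50 CPM in control (20.8-fold, interval 14.2 to 32), in 38.9% against 6.00% of cells, and 21 of the 26 control UMIs came from 1 cell. Cxcl10 had 559 against 184 CPM (3.03-fold), and Ifit2 had 55.4 against 23.1 CPM (2.4-fold). Ifit2 was seen in 5.30% of IMQ and 8.0% of control cells, an order opposite to that of its CPM, so no direction is read from it. Isg15 (176 against 211 CPM), Rsad2 (209 against 192 CPM), Ifih1 (145 against 208 CPM) and Parp14 (134 against 152 CPM) were counted as neither. Ifit1 had 135 against 229 CPM, and the ratios of the other members counted as neither lay between 0.563 for Xaf1 and 1.77 for Ifitm2.

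The macrophage gates also differed in their other markers. Own markers summed to 15035 CPM in IMQ and 16607 CPM in control, but C1qa (1020.0 against 2323 CPM) and Mrc1 (338 against 1093 CPM), typical of tissue-resident macrophages, were lower in IMQ, while the monocyte marker Ccr2 had 341 against 361 CPM. Of 12 neutrophil markers, which summed to 613 against 313 CPM, 3 were at 0 in IMQ and 8 in control, with Ly6g, Cxcr2 and Stfa2l1 at 0 in both and S100a8 at 213 against 0 CPM. Markers of dendritic cells summed to 260.1 against 2312 CPM and those of fibroblasts to 443 against 3439 CPM, and the part of these differences in the member results was not tested. When cells were named by cluster in place of the gate, Irf7, Stat2, Oasl1, Bst2 and Ifi47 were no longer lower, with log2 ratios of -0.94 to -0.35.

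In keratinocytes the Isg15 system was lower throughout while the Ifitm genes and both chemokines were higher. Usp18 had 0.278 CPM in IMQ and 3.68 CPM in control (ratio 0.0756, interval 0.0434 to 0.124), Herc6 had 1.45 against 5.44 CPM and Isg15 1.19 against 3.25 CPM. Trim30a, a regulator of inflammatory signalling, was lower at 0.0618 against 0.656 CPM, from 4 and 23 UMIs. The level that free RNA would give for Trim30a there was 0.158 CPM in IMQ and 0.398 CPM in control. Iigp1 was lower at 0.263 against 0.941 CPM, with 15 of 33 control UMIs in 1 cell. Ifitm2 had 574 against 285 CPM and Ifitm3 702 against 341 CPM, both near the 2-fold limit at ratios of 2.01 and 2.06. Ifitm1 had 4.53 against 1.37 CPM, with 101 of 293 IMQ UMIs in 1 cell. Neutrophil markers in this gate summed to 5590.4 against 42.7 CPM, fibroblast markers to 237 against 1393 CPM and dendritic cell markers to 3.12 against 33.2 CPM, and their part in the results was not tested. Gbp2, a guanylate-binding protein, had 3.41 against 1.54 CPM and Rtp4 0.572 against 0.228 CPM.

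Keratinocytes shared few clusters between the libraries. In the 2 clusters that both held (1597 IMQ and 128 control cells), 2 of 26 measured members were higher and 6 lower, against 2.88% and 6.18% of all genes, with Cxcl9 and Cxcl10 the higher pair. The lower members were Ifi27l2a, Ddx58, Oasl2, Bst2, Igtp and Herc6, from 156, 19, 7, 37, 10 and 10 control UMIs. Cxcl9 had 205 UMIs in IMQ and 2 in control, with a ratio of 4.59 (interval 1.26 to 38.2). Gbp2 was no longer higher there, at 3.98 CPM in IMQ and 5.15 CPM in control from 190 and 11 UMIs, a ratio of 0.774 whose interval (0.423 to 1.58) includes equality. Ifitm2 and Ifitm3 were no longer higher in these clusters, at 668 against 518 CPM and 887 against 707 CPM. Usp18 (0.377 against 1.40 CPM, from 18 and 3 UMIs) and Isg15 (1.43 against 3.28 CPM, from 68 and 7 UMIs) were no longer counted as lower.

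Pericytes and smooth muscle had the most members higher in IMQ. Ifitm1 had 443 CPM in IMQ and 109 CPM in control (4.06-fold, interval 3.57 to 4.62), and Ifitm3 1962 against 956 CPM. Bst2 had 82.9 against 28.5 CPM (2.91-fold), in 39.1% against 15.6% of cells. The GTPases Gbp2 (60.0 against 21.8 CPM), Gbp3 (9.73 against 2.46 CPM) and Iigp1 (27.5 against 8.44 CPM) were higher, as were Ifi35 (56.7 against 25.7 CPM), Irf7 (10.1 against 3.17 CPM), Rtp4 (9.73 against 1.76 CPM) and Trim30a (6.77 against 1.76 CPM). Ifit1 had 20 UMIs in 5 IMQ cells against 3 UMIs in 2 control cells, and Ifit3 had 32 against 6 UMIs with 25 in 1 IMQ cell. Isg15 had 43.1 against 48.2 CPM and Irf1, Irf9 and Stat2 were neither, so the higher members did not include those genes. Fibroblast markers in this gate summed to 2885 against 3146 CPM, endothelial markers to 326 against 86.5 CPM and macrophage markers to 44.4 against 93.2 CPM, and their part in the result was not tested. With each cell weighted equally, Ifitm3, Trim30a, Gbp2 and Iigp1 fell short of 2-fold, at log2 ratios of 0.82 to 0.94. The lowest ratios of the gate were 0.626 for Stat2 and 0.643 for Irf1.

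In Schwann cells, which ensheath peripheral nerves, all 4 measured immunity-related or guanylate-binding GTPases were higher. Ifi47 had 34.7 CPM in IMQ and 6.40 CPM in control, Gbp2 103 against 24.0 CPM with 34 of 68 IMQ UMIs in 1 cell, Irgm1 46.8 against 16 CPM and Igtp 51.3 against 20.8 CPM. The other higher members were Ifitm3 (805 against 270.3 CPM, in 62.9% against 33.7% of cells), Ifi27l2a (106 against 20.8 CPM), Bst2 (116 against 57.6 CPM) and Ifit3 (36.2 against 6.40 CPM). Most of these rest on few UMIs, since Ifi47 and Ifit3 had 23 and 24 in IMQ and 4 in control. Ifitm1 (28.7 against 52.8 CPM), Isg15 (13.6 against 19.2 CPM) and Cxcl10 had the lowest ratios and were neither. Cells here were shallow, with a median of 3124 and 2691 UMIs. Macrophage markers summed to 456 against 219 CPM in this gate and fibroblast markers to 2251 against 3146 CPM, and their part in the result was not tested.

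In endothelial cells the members counted as higher were the chemokines and Gbp2, which had 104 CPM in IMQ and 47.8 CPM in control (2.17-fold, interval 1.5 to 3.24). At the low end Iigp1 had 231 against 429.9 CPM (ratio 0.538), Ifi27l2a 0.573 and Rsad2 0.583, all counted as neither, and Ifitm1, Ifitm2 and Ifitm3 were neither. Within the gate, blood vessel cells (171 IMQ and 47 control) and lymphatic cells (108 and 33) leaned in opposite directions for Iigp1 and Ifitm1. No intervals are given for these smaller groups. In blood vessel cells Iigp1 had 256 CPM in IMQ and 629.6 CPM in control, Ifi27l2a 83.4 and 209.9 CPM, and Rsad2 35.1 and 106 CPM. In lymphatic cells Iigp1 had 161 and 98.4 CPM, from 162 and 24 UMIs. Ifi27l2a had 200.2 and 180.4 CPM there, from 202 and 44 UMIs. Rsad2 had 62.4 and 16.4 CPM, from 63 and 4 UMIs, with 47 of the IMQ UMIs in 1 cell. No direction is read from Ifi27l2a and Rsad2 in lymphatic cells. Ifitm1 had 192 UMIs in IMQ and 0 in control in lymphatic cells, against 60.3 and 98.8 CPM in blood vessel cells. Naming by cluster kept only cluster 26 (128 IMQ and 39 control cells) as endothelial. Cluster 10 (175 and 52 cells), whose leading genes included the lymphatic markers Ccl21a, Lyve1 and Mmrn1, was left unnamed. With cells named by cluster, 2 members were higher and 13 lower, so the count of 0 lower rests on which cells are counted as endothelial. Fibroblast markers summed to 383 against 1918 CPM in the endothelial gate and to 357 against 1589.8 CPM in that of T and natural killer cells, and their part in the results was not tested. In T and natural killer cells Gbp3 (15.9 against 6.21 CPM, or 40 against 7 UMIs) and Cxcl10 were higher, and the lowest ratio was 0.616 for Ifi47. In muscle cells Bst2 was lower at 26.0 against 59.2 CPM, with 17 of the 22 control UMIs in 1 cell, and keratinocyte markers in that gate summed to 3568 against 248 CPM, whose part in the result was not tested. Of the 62 pairs of member and lineage counted as higher or lower, 4 had over 50% of the UMIs of their higher library in 1 cell, and 22 had under 10% there.

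Cells that carried many members at once were counted after each cell had been thinned at random to 3000 UMIs, since the IMQ cells were deeper. A cell was called high when at least 8 of the 39 members had a UMI. In fibroblasts 439 of 3511 IMQ cells were high (12.5%, interval 11.4 to 13.6) and 458 of 6135 control cells (7.47%, interval 6.82 to 8.15). Without thinning the shares were 62.9% and 31.8%, a wider gap than after thinning. Thinning left out 208 IMQ and 491 control fibroblasts as too shallow. Just at the limit, 188 IMQ and 200 control fibroblasts had 8 members and 282 and 305 had 7.

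Macrophages went the opposite way. There 65 of 291 IMQ cells (22.3%, interval 17.7 to 27.6) and 33 of 74 control cells (44.6%, interval 33.0 to 56.6) were high, and 48.0% and 53.0% were without thinning. Among high macrophages Oas2 was seen in 7.69% in IMQ and 33.3% in control, Irgm1 in 0% and 27.3%, and Cxcl10 in 67.7% and 30.3%. Other members were closer, such as Isg15 (47.7% and 48.5%), Ifih1 (52.3% and 48.5%) and Parp14 (55.4% and 51.5%). These 65 and 33 cells were picked by the same members, so which members made a macrophage high was not tested. Endothelial cells had shares of 25.6% in IMQ and 30.8% in control, with overlapping intervals (20.3 to 31.5 and 19.9 to 43.4). Pericytes had 3.65% and 1.2%, and Schwann cells 8.33% and 1.59% from 8 and 1 cells, again overlapping. Thinning left out 74 of 170 IMQ and 100 of 163 control Schwann cells, and 105 of 396 and 26 of 100 macrophages. It also left out 138 of 293 IMQ neutrophils, so the shares in these gates describe their deeper cells. Keratinocytes had 0 of 2038 in IMQ, which allows up to 0.147%, and 2 of 1546 in control (0.129%). Of 155 IMQ neutrophils 16.8% were high, whereas 0 of 98 IMQ red blood cells were, which allows up to 3.06%.

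The members seen most often in high fibroblasts were largely the same in both libraries. Ifitm3 was seen in 100% of high IMQ fibroblasts and 99.1% of high control ones, Ifi27l2a in 89.3% and 88.9%, Bst2 in 64.0% and 68.8%. Cxcl10 was seen in 75.2% against 47.2% and Ifitm1 in 29.8% against 5.68%. Ifit1 was seen in 12.5% against 19.9% and Irf1 in 54.4% against 66.8%. Without thinning, Ifitm3 was seen in 99.2% of all IMQ fibroblasts and in nearly all control ones. Its share among high cells therefore does not set them apart from other fibroblasts. Shares among fibroblasts that were not high are not given, so which members made a fibroblast high was not tested. When Ifitm1, Ifitm2, Ifitm3, Bst2 and Ifi27l2a were left out of the count, the shares at the same limit were 1.97% in IMQ and 1.37% in control fibroblasts, and 5.15% and 13.5% in macrophages. Leaving out the most widely seen members lowers both shares, so these differences are not comparable in size with those above.

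**Figure D3:**
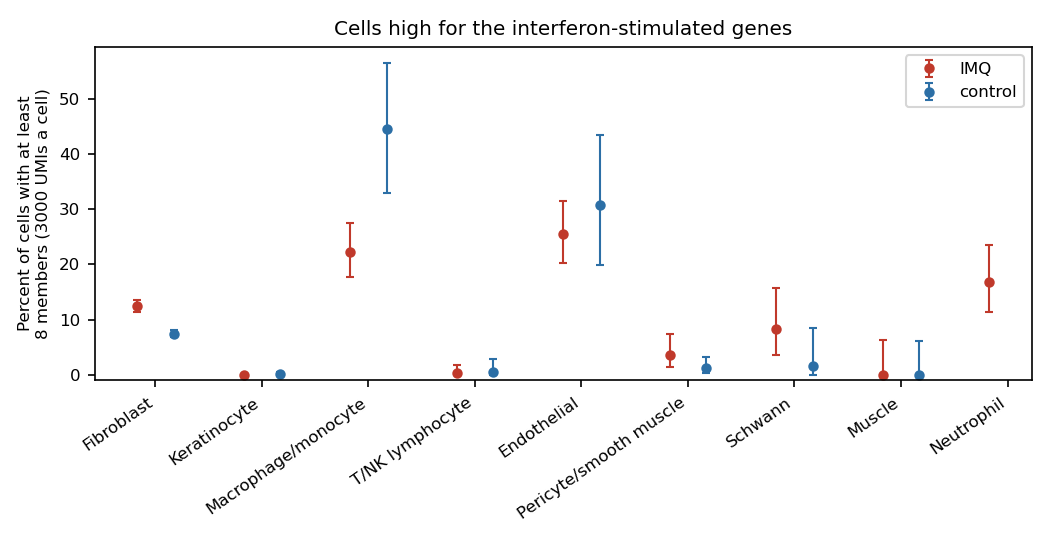
Percent of cells with at least 8 of the 39 members after thinning to 3000 UMIs a cell, by lineage, with exact 95% intervals over cells (counting error only). Fibroblasts are at 12.5% in IMQ and 7.47% in control, macrophages at 22.3% in IMQ and 44.6% in control, and control neutrophils are not drawn because the gate held 7 cells.

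Cxcl10 was carried mostly by fibroblasts in both libraries. In IMQ 18806 of the library's 25883 Cxcl10 UMIs lay in fibroblasts (72.7%), 14.7% in keratinocytes, 5.62% in macrophages, 1.84% in endothelial cells and 1.15% in T and natural killer cells. In control the 8555 UMIs were divided into 89.3% in fibroblasts, 5.51% in keratinocytes, 1.40% in Schwann cells and 1.12% in macrophages. Fibroblasts were 44.3% of IMQ cells and 67.1% of control cells.

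By level the order among the 8 lineages was different. Cxcl10 was highest in IMQ in macrophages (559 CPM, against 184 in control) and then in fibroblasts (353 against 110.3 CPM). Schwann cells (140.4 against 192 CPM), endothelial cells (123 against 4.62 CPM) and T and natural killer cells (118 against 30.2 CPM) came next in IMQ, and their IMQ intervals overlap. Keratinocytes had 58.9 against 13.4 CPM (4.39-fold, interval 3.99 to 4.84) and pericytes 36.4 against 21.1 CPM. The endothelial ratio of 26.6 (interval 9.05 to 129.5) rests on 3 control UMIs, and 218 of its 475 IMQ UMIs lay in 1 cell. Cxcl10 was seen in 42.5% of IMQ and 21.6% of control fibroblasts, 45.2% and 22.0% of macrophages, and 22.2% and 9.32% of keratinocytes. For comparison, the gate of mast cells and basophils had a Cxcl10 UMI in 3.33% of cells in IMQ at a median of 3647 UMIs. In control it was 2.86%, from 1 UMI in 35 cells, at a median of 1170 UMIs. That gate was mostly the basophil-marked cluster 24 in IMQ (57 of 90 cells) and mostly the mast cell-marked cluster 17 in control (29 of 35). Red blood cells had a Cxcl10 UMI in 2.94% of 102 IMQ cells, with 88 of 90 UMIs in 1 cell, but also in 23.1% of the 13 control cells. After thinning, 30.2% of IMQ and 14.5% of control fibroblasts had a Cxcl10 UMI, and 38.1% and 16.2% of macrophages. The level that free RNA would give in fibroblasts was 4.84 CPM in IMQ and 2.01 CPM in control.

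Cxcl9 was rarer and more scattered. The IMQ library held 1760 Cxcl9 UMIs and the control library 367. In IMQ 37.6% lay in fibroblasts, 29.1% in pericytes, 20.6% in keratinocytes, 6.53% in endothelial cells and 2.10% in macrophages. A single pericyte held 496 of the 513 pericyte UMIs and a single macrophage all 37 of the macrophage UMIs. Without that pericyte the shares were 52.4% in fibroblasts, 28.6% in keratinocytes and 1.34% in pericytes. In control 97.3% lay in fibroblasts, and 1 fibroblast held 217 of the 357 UMIs there. With cells named by cluster the fibroblast share was 32.3% in IMQ and 32.4% in control. This naming left out the unnamed clusters 1, 2 and 9, which held fibroblast-gated cells. In control 238 of the 357 Cxcl9 UMIs of fibroblast-gated cells lay in cluster 1. T and natural killer cells had none of the UMIs in IMQ (a count of 0 allows up to 0.170%) or control (up to 0.817%).

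The Cxcl9 level was 49.0-fold higher in IMQ keratinocytes (5.59 against 0.114 CPM, interval 19.0 to 181, from 362 UMIs in 68 cells and 4 UMIs in 4 cells), and 108 of the IMQ UMIs lay in 1 cell. In fibroblasts it was 12.4 against 5.15 CPM (2.41-fold), in 3.85% against 1.16% of cells, a log2 ratio of 1.27. This log2 ratio hung on few cells. As a log2 ratio it was 2.43 without the top cell of each library and 2.69 with cells named by cluster. The log2 ratio was 0.81 with cells weighted equally and 0.99 with size factors, both higher in IMQ but short of 2-fold. In endothelial cells Cxcl9 had 29.8 against 4.62 CPM from 115 and 3 UMIs, and each of these UMIs lay in blood vessel cells and none in the 108 IMQ and 33 control lymphatic ones. Pericytes with 513 UMIs in IMQ and 0 in control, and macrophages with 37 and 0, give lower bounds of at least 206-fold and at least 2.47-fold higher against a floor of 3 counts, but each rests on 1 cell. No T or natural killer cell had a Cxcl9 UMI, among 440 IMQ cells at a median of 4809 UMIs and 282 control cells at 3631 UMIs. After thinning to equal depth, a Cxcl9 UMI was seen in 1.45% of IMQ and 0.375% of control fibroblasts and in 0.834% of IMQ and 0% of control keratinocytes.

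**Figure D4:**
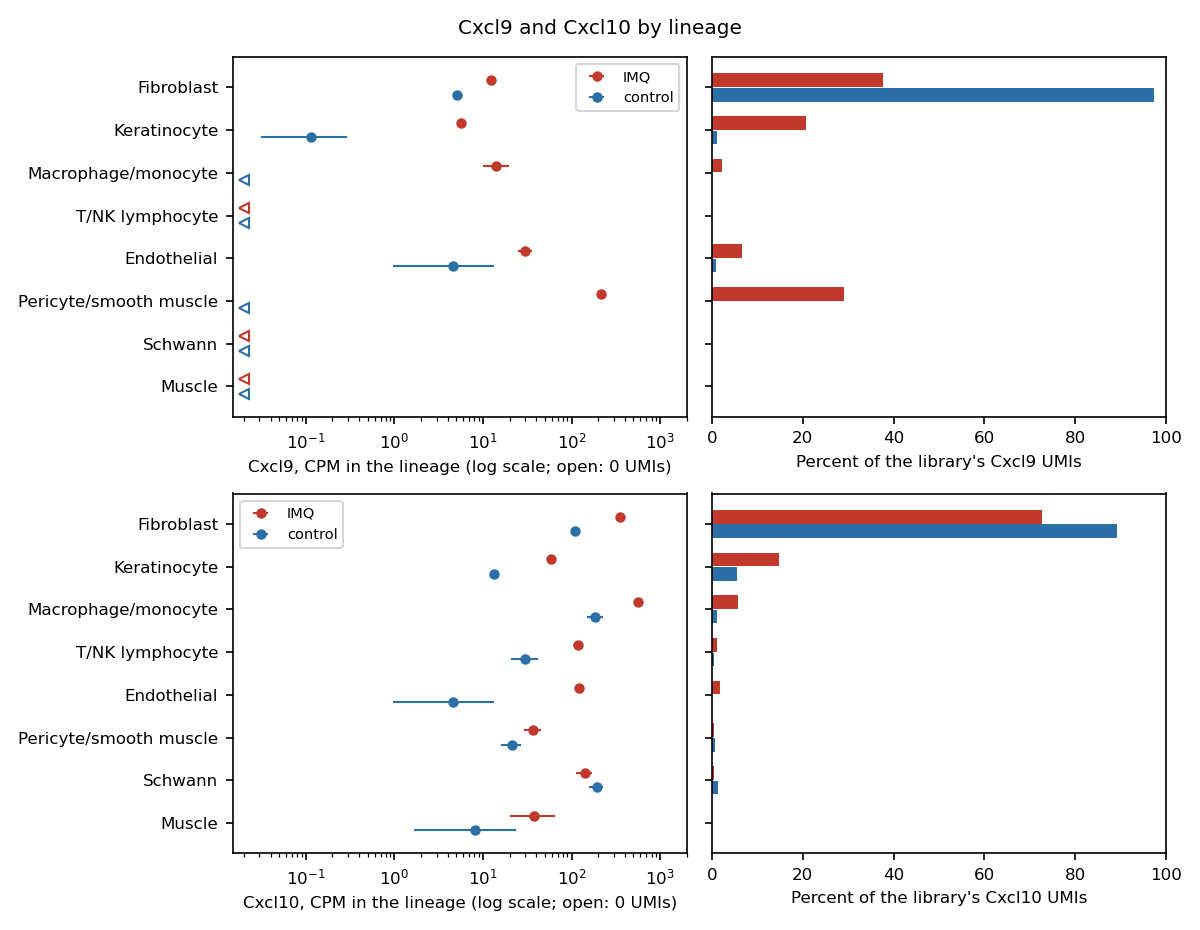
Cxcl9 (top) and Cxcl10 (bottom) in 8 lineages, as CPM with exact 95% Poisson intervals on a log axis (left, open triangles for 0 UMIs) and as the percent of the library's UMIs of that gene (right), IMQ in red and control in blue. Cxcl10 UMIs lie mostly in fibroblasts in both libraries (72.7% in IMQ, 89.3% in control), while 29.1% of IMQ Cxcl9 UMIs lie in pericytes, nearly all in 1 cell.

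Among fibroblasts Cxcl10 was concentrated in cluster 3, whose leading genes included Smpd3, Sfrp2 and Pi16. This cluster held 12284 of the 18806 fibroblast UMIs in IMQ, at 1488 CPM, and 4152 of 7637 in control, at 289 CPM. It had 780 IMQ and 1645 control cells with medians of 10460 and 8814 UMIs. The share of high cells in it was 37.2% in IMQ and 20.1% in control. Within it Isg15 had 67.6 CPM in IMQ and 37.5 CPM in control, Iigp1 118 and 41.3 CPM, and Ifitm1 121 and 10.7 CPM. Ifit1 had 49.8 and 40.5 CPM there and Ifi27l2a 1089 and 1452 CPM, so the members did not all lean the same way.

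The other shared clusters were mixed. Cxcl10 had 214 against 161 CPM in cluster 4, 159 against 85.8 CPM in cluster 20, 81.1 against 115 CPM in cluster 18, 21.6 against 27.1 CPM in cluster 1 and 5.83 against 6.37 CPM in cluster 9. The share of high cells was 23.8% against 21.1% in cluster 4, but 5.88% against 10.8% in cluster 18 and 5.5% against 9.92% in cluster 20. Ifitm1 was at a higher CPM in IMQ in each of the 6 shared clusters, from 31.7 against 5.40 CPM in cluster 20 to 1419.7 against 1029 CPM in cluster 9.

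**Figure D5:**
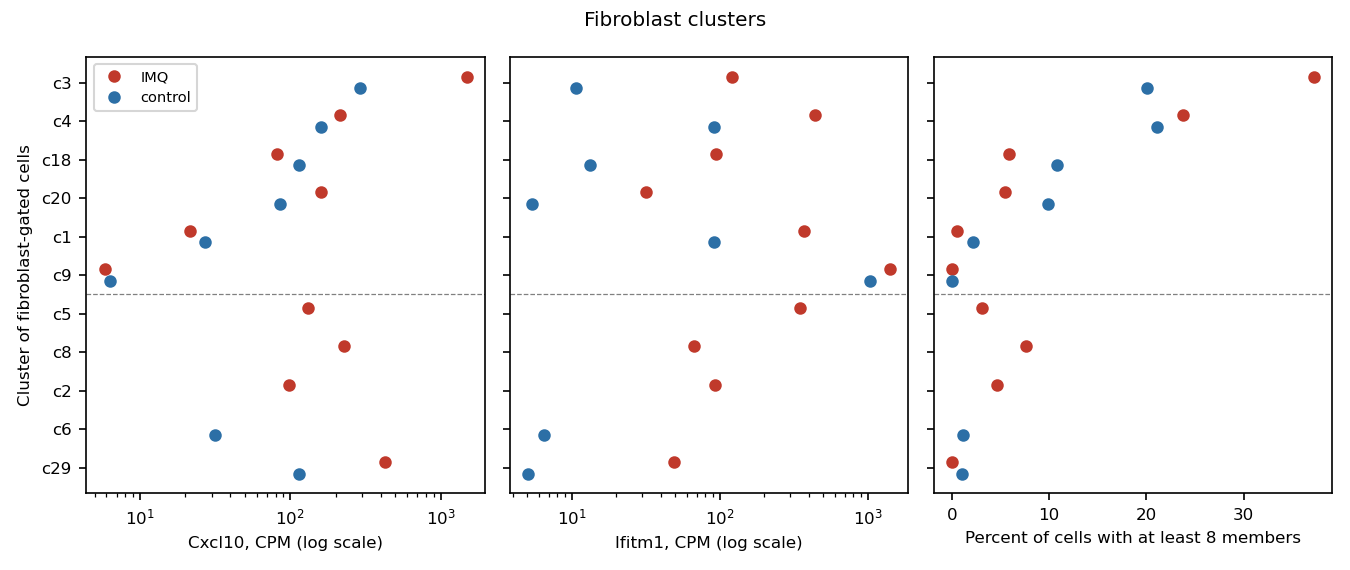
Cxcl10 CPM (left, log axis), Ifitm1 CPM (middle, log axis) and percent of high cells (right) in clusters of fibroblast-gated cells, IMQ in red and control in blue, 1 value per library and cluster. Clusters above the dashed line had at least 50 cells of each library, and cluster 3 has the highest Cxcl10 in both (1488 CPM in IMQ and 289 CPM in control).

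Fibroblasts with Cxcl10 carried more of the other members. After thinning, IMQ fibroblasts with a Cxcl10 UMI had a mean of 5.75 other members and those without one 4.21, and the control means were 5.19 and 3.90. Within cluster 3 the means were 6.59 and 5.87 in IMQ and 6.01 and 5.53 in control, a smaller gap than over all fibroblasts. In Schwann cells the means were 5.06 and 2.99 in IMQ, but 1.70 and 2.28 in control. IMQ fibroblasts with a Cxcl9 UMI had a mean of 5.51 other members and those without one 4.67. Cells with both chemokines were few, 21 in IMQ and 11 in control. The Cxcl10 UMIs were spread over many cells, with 209 IMQ and 180 control fibroblasts holding 50% of them, whereas 7 IMQ and 1 control fibroblasts held 50% of the Cxcl9 UMIs. Their receptor Cxcr3 was found in T and natural killer cells, with 24 UMIs in IMQ and 19 UMIs in control, or 9.51 against 16.9 CPM, counted as neither.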

How the data were processed

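The authors deposited filtered matrices of raw UMI counts per gene and cell, 1 per library. They were made with Cell Ranger 5.0.0 per the file headers, while the submitters' processing notes name Cell Ranger 3.0.2, Seurat 2.0 and mm10. Each library is 1 sample, labelled IMQ or control. Members and lists were chosen with earlier results of these data known. Python 3.11.15, scanpy 1.11.5, scipy 1.17.1 and numpy 2.4.6 were used. Cells with at least 200 genes and at most 10% mitochondrial UMIs were kept. Scrublet, at an expected rate of 0.8% per 1000 cells, called 110 IMQ cells (1.29%) and 422 control cells (4.10%) doublets, which were removed. A cell was gated on at least 3 markers of a lineage with a relative level of at least 0.3 and a margin of 1.25 over the next lineage. Of 15907 gated cells in named clusters, 98.8% had the cluster's name. Trbc1, Trbc2, Trdc and Ighm were not found by symbol among the markers, nor Cxcl11, Oas1b and Mx2 among pathway genes.

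Counts were summed per lineage and library. CPM have exact Poisson intervals, ratios exact conditional binomial intervals and shares Clopper-Pearson intervals, all at 95%. The limit that a share of 0 allows is 3 counts of the total. Genes at 0 in control were set against a floor of 3 counts. Free RNA was estimated from other lineages' markers. With 1 library per condition no p-value was computed. Members were named in fibroblasts and macrophages by value or range, and elsewhere among the up to 4 highest and 4 lowest ratios; other called members were named after their values were seen. The rule for higher and lower genes was tested on simulated independent Poisson counts, for fibroblasts and macrophages only. The gate, the clusters and the shares of cells were not simulated. Alternatives covered gating by cluster, filters, doublets, scaling, free RNA, cell weighting, minimum UMIs and the top cell. A result on a signalling gene is not reported here.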

Additional observations from a re-analysis of the deposited data

Results flagged for a closer look

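For 9 members the ratio of IMQ over control was at least 2-fold in opposite directions in different lineages. The gap between the highest and lowest log2 ratio of such a member is given, and none of these differences between lineages was tested, since each lineage has 1 library per condition. In 8 of the 9, macrophages and monocytes were the low end. Trim30a had a gap of 5.35, with 1.94 in pericytes and -3.41 in keratinocytes. It had 16 UMIs in IMQ and 5 in control in pericytes, and 4 and 23 UMIs in keratinocytes. In keratinocytes free RNA would give 0.158 CPM in IMQ and 0.398 CPM in control, beside the 0.0618 and 0.656 CPM found. Iigp1 had 4.61 (1.70 in pericytes, -2.91 in macrophages), Oas2 4.59 (1.59 in fibroblasts, -3.00 in macrophages) and Rtp4 4.49 (2.47 in pericytes, -2.02 in macrophages). Ifi27l2a had 4.26 (2.35 in Schwann cells, -1.92 in macrophages), Ifi47 3.85 (2.44 in Schwann cells, -1.41 in macrophages) and Irgm1 3.68 (1.55 in Schwann cells, -2.13 in macrophages). Irf7 had 2.89 (1.68 in pericytes, -1.21 in macrophages) and Bst2 2.78 (1.54 in pericytes, -1.24 in macrophages). Other ends also rest on few UMIs, for example 8 in IMQ and 12 in control for Iigp1 in macrophages. In pericytes Rtp4 had 23 and 5 UMIs and Irf7 24 and 9.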

How the results depend on the processing

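No paired analysis was possible because each condition had 1 library. Of the 62 called pairs of member and lineage, 61 kept their direction under each alternative in which they had a value and 29 were called in all of them; Gbp2 in keratinocytes had a log2 ratio of -0.37, with an interval that includes equality, in the clusters shared by both libraries, an alternative chosen after seeing the data. The cause of the moves below was not tested, except that a minimum of 100 UMIs leaves fewer genes. Naming by cluster leaves out the cells of the unnamed clusters 1, 2, 9 and 10, which include fibroblast-gated and endothelial-gated cells.

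Members higher numbered 2 in fibroblasts and 2 in keratinocytes in the shared clusters; 3 in keratinocytes and 1 in T and natural killer cells with doublet calls kept; 7 in macrophages with clusters in place of the gate; and 6 in endothelial cells and 1 in muscle with cells weighted equally. Members lower numbered 4 in fibroblasts and 1 in endothelial cells with size factors, 13 in endothelial cells with clusters, 1 in endothelial cells and 3 in pericytes with cells weighted equally, and 1 in Schwann cells with free RNA subtracted. At a minimum of 100 UMIs, 1 was higher in T and natural killer cells, 6 in pericytes and 2 in Schwann cells, and 3 were lower in keratinocytes and 4 in macrophages. Muscle had 2 higher at a minimum of 1 UMI, and 0 lower with clusters, at 500 genes and 5% mitochondrial UMIs, with cells weighted equally, without the top cell or at 100 UMIs.

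Of the further interferon-stimulated genes, size factors gave 3 higher and 2 lower in fibroblasts, 2 higher in T and natural killer cells and 1 in endothelial cells. A minimum of 100 UMIs gave 3 higher in fibroblasts, 0 in T and natural killer cells and 3 in pericytes, and 6 lower in keratinocytes, 4 in macrophages and 0 in T and natural killer, endothelial and Schwann cells. Clusters gave 4 lower in macrophages, 0 in T and natural killer cells and 5 in endothelial cells, and 5 higher in Schwann cells. Schwann cells had 1 higher at 500 genes and 5%, and 2 at 1 UMI, and endothelial cells 1 with doublet calls kept.

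The difference in percent of high cells, IMQ minus control, was 12.6 in fibroblasts at 6 members, 1.74 at 10, 2.91 thinned to 2000 UMIs, 31.2 unthinned and 0.596 without the 5 abundant genes. It was 0.118 in keratinocytes at 6 members and 3.84 unthinned. In macrophages it was -9.54 with clusters, -8.92 at 6 members, -5.02 unthinned and -8.36 without the 5 genes. Unthinned it was 2.12 in T and natural killer cells, 20.8 in endothelial cells and 16.1 in pericytes, and in pericytes 6.37 at 6 members. The fibroblast share of Cxcl9 UMIs was 32.3% in IMQ and 32.4% in control with clusters, and 52.4% and 93.3% without the top cell, when IMQ keratinocytes held 28.6% and pericytes 1.34%. The fibroblast share of Cxcl10 UMIs was 71.4% in IMQ and 87.7% in control with clusters, 71.9% and 87.7% with doublet calls kept, and 73.3% in IMQ without the top cell. With clusters, IMQ keratinocytes held 15.2% and macrophages 7.0%. Counts under 20 UMIs limit most members in Schwann and muscle cells.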

Other observations

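A further list of 53 interferon-stimulated genes outside the 39 was followed in the same gates. In pericytes and smooth muscle 12 of 27 measured were higher in IMQ and 0 lower, against 6.69% and 6.34% of all measured genes, including the immunoproteasome subunits Psmb8 (73.2 against 12.7 CPM) and Psmb9 (22.8 against 2.11 CPM), the exonuclease Isg20 (16.5 against 3.52 CPM) and the nuclear protein Ifi203 (51.6 against 15.1 CPM). In macrophages and monocytes 3 of 39 were higher and 7 lower, against 5.83% and 9.14% of all genes. The guanylate-binding protein Gbp5 (76.6 against 13.5 CPM) and Slfn2 (915 against 404 CPM) were higher there, while Ly6e (769.9 against 1712 CPM), Ddx60 (9.62 against 59.6 CPM) and Samd9l (44.2 against 125 CPM) were lower. In keratinocytes 1 of 34 was higher, Slfn2 at 7.71 against 1.03 CPM, and 11 were lower, among them Nlrc5, an activator of MHC class I genes (5.21 against 21.8 CPM), and the peptide transporter subunit Tap1 (28.6 against 62.6 CPM). The shares over all genes in keratinocytes were 11.3% higher and 11.4% lower. In fibroblasts 5 of 47 were higher and 1 lower, no more than the 12.5% and 3.84% of all genes, with Ifi205 at 711 against 351 CPM and Slfn5 at 130.1 against 52.6 CPM among the higher. Schwann cells had 0 of 8 higher and 1 lower, against 3.28% and 3.14%.

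Neutrophils were not compared, with 293 cells in IMQ and 7 in control. In the IMQ cells Ifitm1 was at 7472 CPM, Ifitm2 at 5232 CPM and Ifitm3 at 2206 CPM. The same cells had 107 CPM of Isg15, 308 CPM of Ifi27l2a, 128 CPM of Trim30a, 79.9 CPM of Rtp4 and 61.8 CPM of Cxcl10. Endothelial Cxcl10 was at 153 CPM in IMQ and 4.94 CPM in control in blood vessel cells, and at 38.7 and 4.10 CPM in lymphatic cells.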
